A study of Mus musculus with 4 samples.

Results

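Regulatory T cells (Treg cells) are the CD4 T cells that hold other immune cells back. Their defining transcription factor is FOXP3, and they depend on interleukin 2, which they bind with the high-affinity receptor chain CD25 (Il2ra) and so take away from other T cells. They also carry CTLA-4, which removes costimulatory ligands from antigen-presenting cells, and GARP (Lrrc32), which holds latent TGF-beta on the cell surface. In tumours they are known for an activated state with high levels of TNF receptor family members such as OX40 (Tnfrsf4), GITR (Tnfrsf18) and 4-1BB (Tnfrsf9).

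The cells came from subcutaneous tumours of Pan02, a mouse pancreatic cancer cell line, in female C57BL/6 mice that were 6 to 7 weeks old. Tumours had grown to about 50 mm3 when the mice were divided into groups, and the 4 groups were anti-PD-1 (which blocks PD-1, an inhibitory receptor of T cells), anti-LIF (which binds the cytokine LIF), combo (both antibodies) and control (IgG). The protocol in the labels gives 200 µg of anti-PD-1 with 25 mg/kg of IgG or anti-LIF, injected 3 times a week, and does not set out a dose for each group. Each group was 1 single-cell RNA library in which 3 samples had been combined, and animals cannot be told apart. Differences between treatments therefore have no test here, and brackets hold 95% intervals that cover counting error only. The purpose in the series title is to see what anti-LIF does to the tumour surroundings in mice with an immune system.

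Treg cells were chosen by the RNA molecules (UMIs) found in each barcode, so the genes used are a description and no finding. A barcode counted when it had 200 genes or more, mitochondrial UMIs of 20% or less, at least 1 UMI of the T cell receptor complex genes Cd3d, Cd3e and Cd3g, at least 1 UMI of Foxp3, no Cd8a or Cd8b1, at most 2 UMIs of the macrophage C1q genes and fewer than 2 UMIs of the cell cycle genes Mki67, Top2a, Cdk1 and Birc5. This gave 681 cells of the 63443 that passed the first 2 filters. There were 124 in anti-PD-1, 115 in anti-LIF, 236 in combo and 206 in control. They held 299947, 210377 and 552166 UMIs in the 3 treated libraries in that order and 510574 UMIs in control. The median was 1349 UMIs per cell in anti-PD-1, 1194 in anti-LIF, 1704 in combo and 1428.5 in control. Pairs of libraries shared between 277 and 392 of their 15046 to 20393 cell barcodes.

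The gate rested on few molecules of Foxp3. The gene had 1 UMI in 324 of the 681 cells, 2 in 154 and 3 or more in 203. Cells with 1 UMI made up 49.2% of Treg cells in anti-PD-1, 34.8% in anti-LIF, 45.3% in combo and 56.3% in control, so the control gate leaned most on single molecules. Foxp3 RNA also turned up in cells that should lack it. Of CD8 T cells, 1.11% in anti-PD-1, 1.32% in anti-LIF, 3.30% in combo and 1.47% in control had a Foxp3 UMI, at median depths of 1281, 1224, 1525 and 1637 UMIs. The share was at most 0.219% of macrophages in any library. Of T cells without CD8 RNA, at median depths of 1160, 1154, 1528 and 1307 UMIs, the share was 18.4%, 15.7% and 26.0% in the anti-PD-1, anti-LIF and combo libraries and 9.37% in control.

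Cells at the edges of the gate were compared as a description. Cells with a single Foxp3 UMI averaged 722 CPM (a gene's UMIs scaled to the total of its group) of Il2ra over the 4 libraries and 2128 CPM of Ctla4. Cells with 3 or more averaged 1069 CPM of Il2ra and 2387 CPM of Ctla4. Conventional CD4 T cells, taken from the same gate with no Foxp3 UMI and at least 1 Cd4 UMI (1022 cells), averaged 143 and 872 CPM. On these means the 1-UMI cells stood nearer to the Treg cells with more Foxp3 than to the conventional cells. In anti-PD-1 they were nearer to the conventional cells by difference in CPM. There Il2ra was at 676 CPM with 1 UMI, 1454 CPM with 3 or more and 169 CPM in conventional cells, and Ctla4 at 1786, 2931 and 965 CPM. Just outside the gate stood 110 dividing cells with Foxp3, at 651 CPM of Il2ra and 1591 CPM of Ctla4. Another 252 cells with Cd3 and Foxp3 were outside because they held CD8 RNA, 15.3% of such Foxp3 cells in anti-PD-1, 11.0% in anti-LIF, 16.3% in combo and 37.4% in control. The 194 of them that met the other conditions held 585 CPM of Il2ra and 1651 CPM of Ctla4. CD8 T cells without Foxp3 held 43.3 and 552 CPM.

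The label was checked on the marker genes that the gate had not used. Il2ra, Ctla4, Tnfrsf4 and Lrrc32 were each higher in Treg cells than in conventional CD4 T cells in all 4 libraries. With every cell reduced at random to 1000 UMIs, Ctla4 was found in 78.5% of 492 Treg cells and in 46.2% of 801 conventional cells. Il2ra was found in 48.0% of these Treg cells and 11.5% of the conventional cells, and Tnfrsf4 in 52.0% and 22.3%. Lrrc32 was found in 12.0% and 1.12%. Before thinning, a Cd4 UMI was seen in 344 (50.5%) of the 681 Treg cells. Foxp3 itself kept a UMI in 70.7% of the 492 thinned Treg cells, so it can be missed at such a depth. The conventional gate can therefore hold Treg cells without a Foxp3 UMI, and their number was not measured.

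Treg cells were a small share of all cells in every library. They made up 0.862% [0.717, 1.03] of kept cells in anti-PD-1, 0.821% [0.678, 0.984] in anti-LIF, 1.44% [1.26, 1.63] in combo and 1.11% [0.960, 1.27] in control. As a log2 ratio to control, anti-PD-1 stood at -0.36 [-0.69, -0.03], anti-LIF at -0.43 [-0.77, -0.09] and combo at 0.38 [0.11, 0.66]. The exclusion of cells with CD8 RNA took more Foxp3 cells from control than from the treated libraries. With the 194 such cells that met the other conditions kept, a choice made after the data were seen, the shares were 1.01% in anti-PD-1, 0.906% in anti-LIF, 1.69% in combo and 1.75% in control. The log2 ratio of combo to control was then -0.05 [-0.29, 0.19], so combo was no longer above control, and those of anti-PD-1 and anti-LIF were -0.80 and -0.95. Of all T cells in the gate, Treg cells with these cells kept made up 8.16%, 10.6% and 17.9% in the 3 treated libraries and 4.66% in control. Among T cells without CD8 RNA the order was different, and all 3 treated libraries stood above control. The share there was 18.4% [15.5, 21.5] in anti-PD-1, 15.7% [13.1, 18.6] in anti-LIF, 26.0% [23.2, 29.0] in combo and 9.37% [8.18, 10.7] in control, with log2 ratios to control of 0.97 [0.64, 1.30], 0.75 [0.40, 1.08] and 1.48 [1.20, 1.75]. The combo share was also above that of anti-PD-1 (0.50 [0.18, 0.83]) and of anti-LIF (0.73 [0.40, 1.06]). Shares in 1 library sum to a whole, and the pool of T cells without CD8 RNA was 674 cells in anti-PD-1, 732 in anti-LIF, 906 in combo and 2199 in control. Beside 124, 115, 236 and 206 Treg cells, this pool held 123, 201, 234 and 464 conventional CD4 T cells in the same order. The other cells of the pool had no UMI of Foxp3, Cd4, Cd8a or Cd8b1 and were not assigned to a type, so the share depends on them too. The number of CD8 T cells per Treg cell was 8.61 in anti-PD-1, 3.90 in anti-LIF, 2.48 in combo and 21.9 in control. CD8 T cells numbered 1068, 448 and 586 in the anti-PD-1, anti-LIF and combo libraries and 4504 in control. With at least 2 Foxp3 UMIs required, the anti-LIF share of all kept cells turned to the other side of control, at a log2 ratio of 0.15. The combo share of kept cells stood at a log2 ratio of 0.74 to control in thinned cells and 0.10 when no C1q UMI was allowed.

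**Figure D1:**
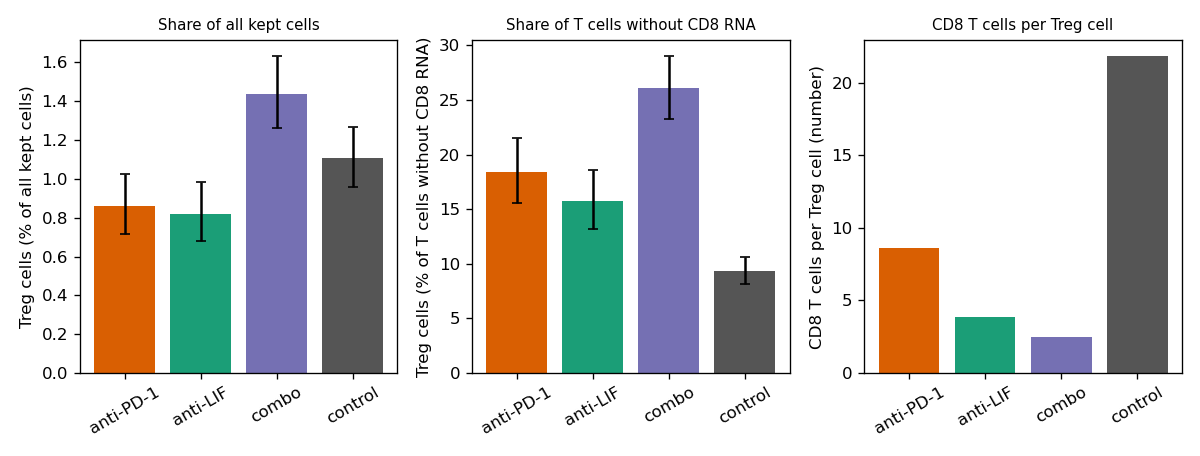
Treg cells as a percentage of all kept cells (left), as a percentage of T cells without CD8 RNA (middle), and the number of CD8 T cells per Treg cell (right) in each library. Bars are single libraries and error bars exact 95% binomial intervals for counting error. With cells of CD8 RNA left out, combo has the highest share in both panels, at 1.44% and 26.0% (with them kept, its share of kept cells is 1.69% and that of control 1.75%), and control the most CD8 T cells per Treg cell, at 21.9.

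The programme that set Treg cells apart from conventional CD4 T cells was read in all 4 libraries together. UMIs were summed per library over 681 Treg cells and 1022 conventional CD4 T cells, and edgeR's quasi-likelihood test with the library as a block compared the 4 sums with the other 4. Genes used in the gate were left out of the calls. Of 5827 genes, 139 (2.39%) were higher and 75 (1.29%) were lower in Treg cells at an adjusted p of at most 0.05. Of the 11 Treg identity genes tested, 10 were higher and none was lower, with a median log2 ratio of 1.84. The list was drawn up to describe Treg cells, so its direction is no independent evidence.

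CD25 was the clearest of these. Il2ra (chr2:11642807-11693193, plus strand, GRCm38) stood at 787, 993, 1094 and 517 CPM in Treg cells of anti-PD-1, anti-LIF, combo and control, against 169, 145, 139.6 and 118 CPM in conventional CD4 T cells of the same libraries. The groups did not overlap (log2 ratio 2.51, SE 0.155, adjusted p = 0.000546 with edgeR). The TGF-beta anchor Lrrc32 (chr7:98489283-98502181) stood at 170.0, 199.6, 107 and 43.1 CPM in Treg cells of anti-PD-1, anti-LIF, combo and control, against 43.1, 32.5, 20.2 and 11.5 CPM in conventional CD4 T cells of the same libraries (log2 ratio 2.21, SE 0.205, adjusted p = 0.00234 with edgeR). The lowest Treg value of Lrrc32, in control, equalled the highest conventional value, in anti-PD-1, within counting error, while in each library the Treg cells were higher. Ctla4 spanned 1964 to 2386 CPM in Treg cells and 721 to 965 CPM in conventional CD4 T cells, with a log2 ratio of 1.32 (adjusted p = 0.00212).

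The Ikaros family factors that help hold the Treg state went the same way, Ikzf4 (Eos) with a log2 ratio of 2.00 (adjusted p = 0.00495) and Ikzf2 (Helios) with 1.78 (adjusted p = 0.00697). Itgae (CD103), an integrin chain that binds epithelial E-cadherin, differed by 2.51 (adjusted p = 0.00212). Itgb8, part of the integrin that frees active TGF-beta, differed by 1.88 (adjusted p = 0.0264), and Izumo1r (folate receptor 4) by 1.84 (adjusted p = 0.00383). Nrp1, a receptor linked to thymus-derived Treg cells, was the identity gene that did not pass the test, at 65.2 to 107 CPM in Treg cells and 71.7 to 136 CPM in conventional CD4 T cells (log2 ratio -0.13 (adjusted p = 0.791)).

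Genes of activated and tissue Treg cells were next. Of 19 tested, 6 were higher and none was lower in Treg cells, with a median log2 ratio of 0.71. Klrg1, a lectin-like receptor of terminally differentiated Treg cells, spanned 435 to 773 CPM in Treg cells and 55.2 to 153 CPM in conventional CD4 T cells (log2 ratio 2.50, SE 0.19, adjusted p = 0.00117 with edgeR). It was found in 41.1% of thinned Treg cells and 6.62% of thinned conventional cells. Il1rl1 (ST2), the receptor for the alarmin interleukin 33, spanned 133 to 536 CPM in Treg cells and 25.1 to 155 CPM in conventional CD4 T cells (log2 ratio 1.98 (adjusted p = 0.00529)). The tissue repair factor Areg differed by 0.78 (adjusted p = 0.0162) and the transcription factor Maf by 0.75 (adjusted p = 0.0484). The costimulator Icos was close in the 2 cell types and did not pass the test, with a log2 ratio of 0.29 (adjusted p = 0.149). Ccr8, a chemokine receptor known from tumour Treg cells, was too low to be tested and was found in 2.85% of thinned Treg cells.

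In the TNF receptor family, 6 of 9 genes tested were higher and 1 was lower, with a median log2 ratio of 0.85. The log2 ratio was 2.21 (adjusted p = 0.00347) for Tnfrsf13b (TACI), 1.46 (adjusted p = 0.0226) for Tnfrsf9, 1.42 (adjusted p = 0.00212) for Tnfrsf4 and 1.19 (adjusted p = 0.0136) for Tnfrsf18. The smallest called differences were in Cd27, at 0.85 (adjusted p = 0.0272), and in Tnfrsf1b (TNF receptor 2), at 0.60 (adjusted p = 0.0264). The one called lower was a ligand of the family, Tnfsf11 (RANKL), at -2.68 (adjusted p = 0.00212).

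Of the 10 suppressive effector genes tested, Il10, Ebi3 and Fgl2 were higher and none was lower. Il10, the anti-inflammatory cytokine, stood at 153, 133, 159 and 56.8 CPM in Treg cells of anti-PD-1, anti-LIF, combo and control, against 3.59, 37.5, 38.6 and 17.7 CPM in conventional CD4 T cells of the same libraries (log2 ratio 2.20, SE 0.382, adjusted p = 0.0218 with edgeR). The lowest Treg value lay above the highest conventional one. Ebi3, a subunit of interleukin 35 and interleukin 27, differed by 1.34 (adjusted p = 0.0226). Gzmb (granzyme B) spanned 433 to 703 CPM in Treg cells and 69.8 to 441 CPM in conventional CD4 T cells, higher in Treg cells in all 4 libraries, and missed the threshold at a log2 ratio of 1.45 (adjusted p = 0.0661). Entpd1 and Nt5e, which make adenosine from ATP, and Tgfb1 did not pass.

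Of 21 genes tested in the interferon gamma and MHC class I list, 7 were higher in Treg cells and 1, the cytokine itself, was lower, with a median log2 ratio of 0.39. The GTPases Igtp and Gbp3 had log2 ratios of 1.41 (adjusted p = 0.00389) and 1.35 (adjusted p = 0.00668). Ifng had 2, 0 and 0 UMIs in Treg cells of anti-PD-1, anti-LIF and combo and 24 in control (log2 ratio -3.06 (adjusted p = 0.0485)). In conventional CD4 T cells Ifng stood between 47.8 and 237 CPM.

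The genes lower in Treg cells were led by helper T cell ligands and by Tcf7. Tcf7 (TCF-1), the factor of naive and memory T cells, had 3, 3 and 18 UMIs in Treg cells of anti-PD-1, anti-LIF and combo and 17 in those of control, at most 33.3 CPM. In conventional CD4 T cells it stood between 158 and 371 CPM, above every Treg value (log2 ratio -3.32, SE 0.292, adjusted p = 0.00212 with edgeR). Tnfsf8, the ligand of CD30, spanned 6.67 to 61.8 CPM in Treg cells and 158 to 355 CPM in conventional CD4 T cells (log2 ratio -3.41 (adjusted p = 0.00117)). Of 11 resting Treg genes tested, Tcf7, S1pr1 (the receptor for exit from tissues) and Satb1 were lower, and 1 was higher. The interleukin 7 receptor Il7r did not pass, with a log2 ratio of 0.07 (adjusted p = 0.917). Among chemokine receptors and homing genes Ccr2, Itgae and Itgb7 were higher and Cxcr6 and Itgb1 lower of 12 tested.

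Outside the lists, the 10 highest log2 ratios included Neb (2.01) and Arl5c (2.00). The 10 lowest included Nrgn (-2.80), Tbc1d4 (-2.68), Adamts2 (-2.50), Themis (-2.40) and Timp3 (-2.30). Of the fat-storage enzymes, Dgat2 (triglyceride synthesis) was higher with a log2 ratio of 2.08 (adjusted p = 0.0144). Antibody genes Ighm and Igkc were also called higher, at 1.79 and 1.63, together with the macrophage-list genes Cd74 (1.60) and Ctss (0.92). Igkc lost its call without cells of over 1% other RNA (adjusted p = 0.0773 with edgeR), and Ighm and Cd74 kept theirs. RNA of other cells is described with the treatment comparison. With cells of more than 1% such RNA left out of both gates, 240 genes were higher and 183 lower. Without the anti-LIF library 35 were higher and 23 lower, the smallest counts among the alternatives. Of 60 called genes followed through the alternatives, 22 stayed called in each alternative that tested them, among them Il2ra, Ctla4, Tnfrsf4, Lrrc32, Klrg1, Ikzf4, Itgae, Izumo1r, Tcf7 and Tnfsf8. An alternative in which a gene was too low to be tested was not counted against it. Ikzf2 lost its call without anti-LIF (adjusted p = 0.057 with edgeR). Il10, Tnfrsf18 and Tnfrsf9 lost theirs without control, without anti-LIF and without combo, and Il1rl1 kept its call in each of these and lost it with the library term left out.

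**Figure D2:**
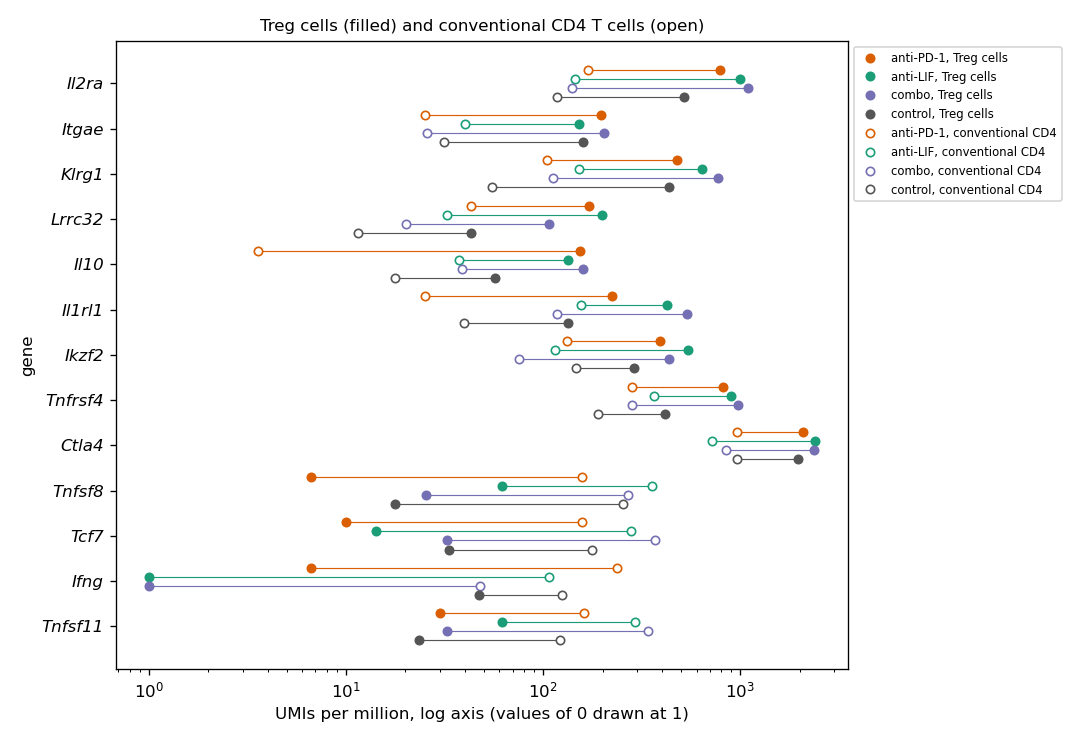
CPM on a log axis of 13 genes in Treg cells (filled) and conventional CD4 T cells (open) of the same library, joined by a line, with values of 0 drawn at 1. In all 4 libraries the upper 9 genes lie to the right in Treg cells and the lower 4, from Tnfsf8 to Tnfsf11, to the left.

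Promoters were looked up for Foxp3, Il2ra, Il1rl1, Lrrc32 and Klrg1. Lrrc32 and Klrg1 had no window, and the Il2ra window held none of the 3 motifs described below. The windows with a motif are shown for 2 genes, Foxp3, which defines the cells, and Il1rl1, which differed both between cell types and between libraries. The windows are from RefSeq (GRCm38.p6) and run from 250 bases before to 50 bases after a transcript start on the plus strand. Those shown lie at chrX:7580233-7580532 for Foxp3 and chr1:40439379-40439678 for Il1rl1, and each of these 2 genes has a second window, not shown, that holds none of the 3 motifs. Capitals mark a match to 1 of 3 motifs on either strand, TTCNNNGAA (STAT), TGTTTAC (forkhead) or TGANTCA (AP-1).
Foxp3: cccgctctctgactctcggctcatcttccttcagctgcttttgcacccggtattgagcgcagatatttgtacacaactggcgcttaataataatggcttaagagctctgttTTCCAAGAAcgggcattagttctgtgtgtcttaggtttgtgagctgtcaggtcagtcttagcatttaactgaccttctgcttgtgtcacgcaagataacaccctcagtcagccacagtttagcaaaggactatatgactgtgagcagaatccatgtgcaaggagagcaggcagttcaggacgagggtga
Il1rl1: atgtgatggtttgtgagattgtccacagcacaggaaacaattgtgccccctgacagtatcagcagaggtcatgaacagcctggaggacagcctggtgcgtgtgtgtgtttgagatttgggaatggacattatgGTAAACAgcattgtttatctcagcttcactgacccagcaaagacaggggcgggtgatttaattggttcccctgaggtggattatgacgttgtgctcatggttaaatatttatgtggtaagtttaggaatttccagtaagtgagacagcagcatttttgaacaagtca
The Foxp3 window held 1 STAT motif and the Il1rl1 window 1 forkhead motif on the minus strand. Of the 139 genes higher in Treg cells, 101 had a promoter in the table, and 14.9% of these held a STAT motif, 7.92% a forkhead motif and 7.92% an AP-1 motif. Of the 75 genes lower, 54 had a promoter, with 14.8%, 5.56% and 5.56%. Of 4646 genes tested with a promoter, the shares were 7.81%, 3.57% and 6.22%, and they were 9.55%, 4.05% and 8.97% of all 27025 genes with a window. A match describes the letters and is not a site of binding.

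Next, gene levels within Treg cells were set side by side between libraries. A gene was called when its log2 ratio was at least 1 in size at a mean of at least 50 CPM, a rule of size and not a test. Anti-PD-1 over control had 219 of 3114 genes past it (7.03%), with 5.07% higher and 1.96% lower. Anti-LIF over control had 441 of 3112 (14.2%), with 8.87% higher and 5.3% lower. Combo over control had 266 of 3115 (8.54%), with 4.91% higher and 3.63% lower. The same control cells stand in all 3 comparisons. Anti-LIF had the fewest Treg cells, 115, and the fewest UMIs, 210377, and the part of counting error in its larger count was not tested. All measured genes had a median log2 ratio of 0.09, 0.18 and 0.15, in the same order, and lists are read against it. Genes named below for 1 library against another carry counting error only, and fewer cells of a subtype and less RNA per cell cannot be told apart in these sums.

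RNA of other cells in the gate differed between libraries. Macrophage markers summed to 3867 CPM in anti-PD-1, 5661 in anti-LIF, 2753 in combo and 1888 in control, in 108, 94, 212 and 156 cells, with none of the 12 markers at 0 in any library. Fibroblast markers summed to 8525, 2605 and 5634 CPM in the anti-PD-1, anti-LIF and combo libraries and 9029 CPM in control. B and plasma cell markers summed to 210.0, 352 and 321 CPM in the treated libraries and to 24271 CPM in control. The control value came from antibody genes, with Igkc (an antibody light chain) at 18769 CPM and Jchain (a part of secreted antibodies) at 2727 UMIs in 12 control cells and 0 UMIs in the treated libraries. Cancer cell markers summed to 247, 80.8 and 417 CPM in the anti-PD-1, anti-LIF and combo libraries and 372 CPM in control, and neutrophil markers to 217, 9.51 and 266 CPM and, in control, 74.4 CPM. The gamma delta T cell markers were highest in combo, at 134 CPM, and stood at 50.9 CPM in control. NK cell markers were at or near 0, at 7.83 CPM or less. Cells with over 1% of their UMIs from 1 such list numbered 7 in anti-PD-1, 10 in anti-LIF, 10 in combo and 15 in control, and the ratios that follow were also computed without them, a choice made after the data were seen. Without those cells the log2 ratios to control of anti-PD-1, anti-LIF and combo were 0.55, 0.82 and 0.94 for Il2ra, 0.94, 0.99 and 1.13 for Tnfrsf4, and 0.54, 1.45 and 1.79 for Il1rl1. For Il7r they were 1.41, 1.54 and 2.33. Beyond this the part of other cells' RNA in the results was not tested.

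Of the measured TNF receptor family genes, 4 of 5 in anti-PD-1, 7 of 7 in anti-LIF and 6 of 6 in combo had a log2 ratio to control above 0. The share of all measured genes above 0 was not computed, so these counts have no background beside them. The list of the IL-2 and STAT5 axis had 5 of 10, 10 of 10 and 10 of 10 above 0. The median log2 ratio of the TNF receptor family to control was 0.61 for anti-PD-1 (0 past 2-fold), 1.12 for anti-LIF (4 past 2-fold, all higher) and 0.62 for combo (2 past 2-fold, both higher). Tnfrsf4 stood at 817 CPM in anti-PD-1, 898 CPM in anti-LIF and 976 CPM in combo, against 413 CPM in control. Control was the lowest and the 3 treated libraries lay close together, with log2 ratios to control of 0.98 [0.71, 1.26], 1.12 [0.83, 1.41] and 1.24 [1.01, 1.48]. Tnfrsf18 stood at 310.1 CPM in anti-PD-1, 485 CPM in anti-LIF and 228 CPM in combo, against 172 CPM in control. It was highest in anti-LIF, with a log2 ratio of 1.49 [1.07, 1.92] to control, and the log2 ratio of combo to anti-LIF was -1.09 [-1.48, -0.70]. Tnfrsf9 was high in every library, at 1114 CPM in anti-PD-1, 1802 CPM in anti-LIF and 1558 CPM in combo, against 1242 CPM in control. In conventional CD4 T cells the TNF receptor family list had medians of 0.58, 0.75 and 0.28, so a higher level of the family was not seen in the Treg gate alone. The conventional gate can hold Treg cells without a Foxp3 UMI, and their part in these medians was not tested. In Treg cells with at least 2 Foxp3 UMIs the medians were 0.33, 0.65 and 0.53.

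Treg identity genes had medians of 0.37, 0.67 and 0.42 over 10 measured genes. Past 2-fold were 1, 3 and 2 of them, all higher than in control. The medians in conventional CD4 T cells were 0.28, 0.10 and -0.15. Il2ra stood at 787 CPM in anti-PD-1, 993 CPM in anti-LIF and 1094 CPM in combo, against 517 CPM in control. Its log2 ratios to control were 0.61 [0.35, 0.86], 0.94 [0.67, 1.21] and 1.08 [0.87, 1.30]. The mean over cells, which gives every cell the same weight, brought the combo ratio to 0.57 and the anti-LIF ratio to 0.61. Lrrc32 had the widest gap of the list, at 170.0 CPM in anti-PD-1, 199.6 CPM in anti-LIF and 107 CPM in combo, against 43.1 CPM in control. Its log2 ratios were 1.96 [1.23, 2.77], 2.20 [1.43, 3.03] and 1.29 [0.58, 2.09], and 1.26, 1.88 and 1.05 in cells with at least 2 Foxp3 UMIs. Ctla4 differed little, at 2077 CPM in anti-PD-1, 2386 CPM in anti-LIF and 2356 CPM in combo, against 1964 CPM in control. Foxp3, which the gate used, stood at 837 CPM in anti-PD-1, 1369 CPM in anti-LIF and 1027 CPM in combo, against 766 CPM in control.

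Of the activated and tissue Treg list, 1 gene was past 2-fold in anti-PD-1 (16 measured), 4 in anti-LIF (17 measured) and 4 in combo (16 measured), all higher than in control, with medians of 0.32, 0.54 and 0.64. The interleukin 33 receptor gene Il1rl1 stood at 223 CPM in anti-PD-1, 423 CPM in anti-LIF and 536 CPM in combo, against 133 CPM in control. It was found in 30 of 124, 38 of 115, 87 of 236 and 37 of 206 cells in that order. As a log2 ratio to control, anti-PD-1 stood at 0.75 [0.24, 1.25], anti-LIF at 1.66 [1.20, 2.14] and combo at 2.00 [1.62, 2.41], and combo was above anti-PD-1 by 1.25 [0.88, 1.67]. As a mean over cells the log2 ratio of combo was 1.27 to control and only 0.40 to anti-PD-1. With at least 2 Foxp3 UMIs the ratio of combo to control was 2.45. The Il1rl1 log2 ratios of conventional CD4 T cells were -0.58, 1.96 and 1.56 to control and 2.14 for combo to anti-PD-1, and the activated list had medians of 0.11, 0.35 and 0.29. Gata3, the factor of type 2 responses that acts with ST2 in tissue Treg cells, stood at 183 CPM in anti-PD-1, 176 CPM in anti-LIF and 293 CPM in combo, against 137 CPM in control. Rel (c-Rel), an NF-kappa-B subunit needed for Treg development, stood at 230.0 CPM in anti-PD-1, 371 CPM in anti-LIF and 309.7 CPM in combo, against 129 CPM in control, and the NF-kappa-B regulator Nfkbid at 297 CPM in anti-PD-1, 318 CPM in anti-LIF and 359 CPM in combo, against 147 CPM in control. Klrg1 stood at 477 CPM in anti-PD-1, 637 CPM in anti-LIF and 773 CPM in combo, against 435 CPM in control. Areg was past 2-fold in anti-PD-1 with a log2 ratio of 1.03 [0.66, 1.40], and of -0.38 in cells with at least 2 Foxp3 UMIs.

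Il10 was higher in each treated library. It stood at 153 CPM in anti-PD-1, 133 CPM in anti-LIF and 159 CPM in combo, against 56.8 CPM in control, in 15, 15 and 28 cells of the treated libraries and 21 of control. The 10 cells with most of it held 89.1%, 82.1% and 72.7% of its UMIs in the anti-PD-1, anti-LIF and combo libraries and 62.1% in control, and few cells carried it. The log2 ratios to control were 1.42 [0.73, 2.16], 1.23 [0.43, 2.03] and 1.47 [0.87, 2.15]. Gzmb went the other way, at 527 CPM in anti-PD-1, 433 CPM in anti-LIF and 532 CPM in combo, against 703 CPM in control (log2 ratios -0.41 [-0.70, -0.14], -0.70 [-1.05, -0.37] and -0.40 [-0.63, -0.17]), none past 2-fold. The suppressive effector list as a whole had medians of 0.21, 0.27 and 0.05.

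Among resting genes, Il7r, the survival receptor of naive and memory T cells, stood at 240.0 CPM in anti-PD-1, 285 CPM in anti-LIF and 499.9 CPM in combo, against 90.1 CPM in control. Control was lowest and combo highest, with log2 ratios to control of 1.41 [0.86, 1.98], 1.66 [1.08, 2.25] and 2.46 [2.02, 2.96], and combo above anti-PD-1 by 1.05 [0.68, 1.45] and above anti-LIF by 0.80 [0.40, 1.24]. In conventional CD4 T cells Il7r stood at 190.2, 285 and 358 CPM in the anti-PD-1, anti-LIF and combo libraries and 131 CPM in control, so the order was the same there. The lymph node homing receptor Ccr7 was past 2-fold in combo, at 487 CPM in combo and 235 CPM in control. The resting list had medians of 0.32, 0.29 and 0.62, and -0.34, 0.17 and 0.63 in cells with at least 2 Foxp3 UMIs. Conventional CD4 T cells had medians of 0.55, 0.55 and 1.02.

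UMIs of resting and activated genes were often found in the same cell, with no background share to set beside this. Among 492 cells thinned to 1000 UMIs, 48.0% had UMIs of genes of both kinds, 44.5% of the activated kind alone, 3.86% of the resting kind alone and 3.66% of neither. Both kinds were found in 45.7% of anti-PD-1, 44.6% of anti-LIF, 55.6% of combo and 41.2% of control Treg cells. Of 801 thinned conventional CD4 T cells, 42.7% had both kinds and 13.98% the resting kind alone. In combo both kinds were in 55.8% of conventional cells, close to the Treg share.

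The LIF pathway itself could hardly be read in these cells. The LIF receptor Lifr had 3 UMIs in anti-PD-1, 0 in anti-LIF, 0 in combo and 1 in control. Lif had 13, 3 and 5 UMIs in the anti-PD-1, anti-LIF and combo libraries and 32 in control, found in 8, 2, 5 and 5 cells. Downstream, Socs3, the feedback inhibitor of the shared receptor chain gp130, stood at 233 CPM in anti-PD-1, 318 CPM in anti-LIF and 176 CPM in combo, against 198 CPM in control, and Stat3 at 780.1 CPM in anti-PD-1, 1174 CPM in anti-LIF and 949 CPM in combo, against 928 CPM in control. The kinase gene Pim1, a target of STAT3 and STAT5, stood at 1547 CPM in anti-PD-1, 2747 CPM in anti-LIF and 2224 CPM in combo, against 1661 CPM in control. None of these 3 was past 2-fold in any comparison with control. The list of the LIF, IL-6 and STAT3 axis had medians of 0.19, 0.69 and 0.45, with 1, 1 and 3 genes past 2-fold, all higher. In cells with at least 2 Foxp3 UMIs the anti-LIF median was 0.14. Pdcd1, the gene of PD-1 itself, stood at 110.0 CPM in anti-PD-1, 80.8 CPM in anti-LIF and 158 CPM in combo, against 68.6 CPM in control, past 2-fold in combo (1.19 [0.62, 1.81]).

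Ifit1, an antiviral gene of the type I interferon response, stood at 203 CPM in anti-PD-1, 14.3 CPM in anti-LIF and 170.2 CPM in combo, against 41.1 CPM in control, with log2 ratios to control of 2.28 [1.57, 3.10], -1.34 [-3.92, 0.22] and 2.02 [1.36, 2.81]. Its UMIs came from 11 cells in anti-PD-1, 3 in anti-LIF, 19 in combo and 15 in control. Slfn5 stood at 100.0 CPM in anti-PD-1, 28.5 CPM in anti-LIF and 105 CPM in combo, against 19.6 CPM in control, in 16, 6, 33 and 8 cells. Both were high in the 2 libraries that received anti-PD-1, as far as so few cells show it. In conventional CD4 T cells Ifit1 stood at 28.7, 153 and 198 CPM in the anti-PD-1, anti-LIF and combo libraries and 25.0 CPM in control, an order that did not match. The type I interferon list as a whole had medians of 0.39, 0.29 and 0.62 in Treg cells. Past 2-fold were 2 of 9, 2 of 7 and 3 of 10 measured genes, all higher. The list summed to 2620, 2291 and 2604 CPM in the treated libraries and 1782 CPM in control, so anti-LIF was also above control. Gbp2, a GTPase induced by interferon gamma, stood at 327 CPM in anti-PD-1, 95.1 CPM in anti-LIF and 152 CPM in combo, against 384 CPM in control, past 2-fold below control in anti-LIF (-1.98 [-2.76, -1.35]) and combo (-1.33 [-1.72, -0.96]). The interferon gamma and MHC class I list moved little, with medians of 0.20, 0.16 and 0.10.

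In metabolism, the enzymes that finish triglyceride synthesis stood out from a list that did not move as a whole. Dgat1 stood at 240.0 CPM in anti-PD-1, 513 CPM in anti-LIF and 179 CPM in combo, against 90.1 CPM in control, with a log2 ratio of 2.50 [2.00, 3.04] for anti-LIF. Dgat2 stood at 113 CPM in anti-PD-1, 109 CPM in anti-LIF and 185 CPM in combo, against 43.1 CPM in control, with a log2 ratio of 2.07 [1.42, 2.84] for combo, and 1.36 as a mean over cells. The lipid carrier Fabp5 was past 2-fold in all 3 comparisons with control, but as a mean over cells none stayed past it, with log2 ratios of -0.08, 0.93 and 0.63 in place of 1.43, 1.76 and 1.45. The glycolytic enzyme gene Hk2 stood at 86.7 CPM in anti-PD-1, 23.8 CPM in anti-LIF and 34.4 CPM in combo, against 99.9 CPM in control. The list's medians were 0.11, 0.23 and 0.29. In the TGF-beta axis, Nrros, a protein that anchors latent TGF-beta in myeloid cells, stood at 56.7 CPM in anti-PD-1, 147 CPM in anti-LIF and 63.4 CPM in combo, against 21.5 CPM in control, and the inhibitor Smad7 at 290.1 CPM in anti-PD-1, 361 CPM in anti-LIF and 249.9 CPM in combo, against 165 CPM in control. Macrophages express Nrros too, and its anti-LIF log2 ratio was 2.73 with all Treg cells and 2.69 without cells of over 1% other RNA. The macrophage markers themselves kept a median log2 ratio of 1.60 without those cells, and 2.71 with them.

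**Figure D3:**
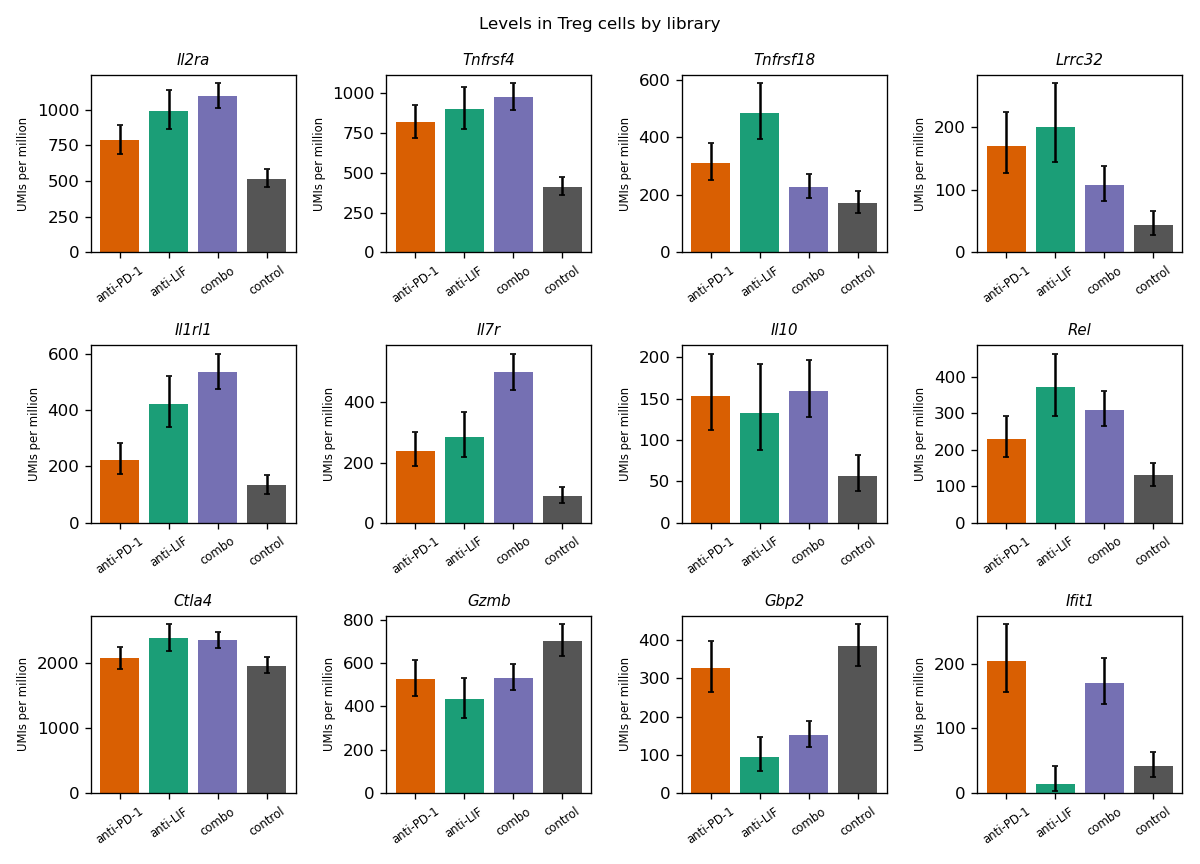
CPM of 12 genes summed over Treg cells of each library, with exact 95% Poisson intervals for counting error. Control is lowest for the first 8 genes, the 4 libraries are close for Ctla4, control is highest for Gzmb and Gbp2, and Ifit1 is high in anti-PD-1 and combo.

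Genes with the 6 highest and 6 lowest log2 ratios were taken per comparison at a mean of at least 100 CPM and UMIs in at least 10 cells of the higher library. For combo over control they included Bpifa2, a salivary gland gene with 134 UMIs in 90 combo cells and 0 in the other libraries. Bpifa2 stood at 243 CPM in combo Treg cells and 3346 CPM in combo conventional CD4 T cells. Among the lowest were Jchain, Enpp2, Spp1, Ptgs2, Tnc and Nupr1. The 10 control cells with most of each held 99.9%, 98.7%, 92.9%, 89.6%, 98.8% and 85.1% of its UMIs in that order. As means over cells their log2 ratios were -10.3, -2.57, -2.61, -1.94, -0.31 and -3.51, in place of -12.5, -5.05, -3.64, -2.86, -2.51 and -2.43. For anti-LIF over control the highest were led by Slfn2, at 107 CPM in anti-PD-1, 190.1 CPM in anti-LIF and 81.5 CPM in combo, against 19.6 CPM in control, followed by the myeloid or macrophage genes Fcer1g, Apoe, Cfp, Lyz2 and Tyrobp. Lyz2 stood at 263 CPM in anti-PD-1, 1131 CPM in anti-LIF and 210.1 CPM in combo, against 153 CPM in control and was in 37, 37, 64 and 9 cells. For anti-PD-1 over control the highest were Ifit1, Bgn, Acta2, Lrrc32, Ppp1ca and Penk. Bgn was in 13 and Acta2 in 15 of the anti-PD-1 cells, and 10 cells held 97.7% and 97.6% of their UMIs. Penk, the precursor of enkephalin peptides and a gene known in tissue Treg cells, stood at 587 CPM in anti-PD-1, 342 CPM in anti-LIF and 749.8 CPM in combo, against 168 CPM in control, in 19, 13, 49 and 21 cells. The 10 cells with most Penk held 86.9%, 95.8%, 71.3% and 86.0% of its UMIs in that order. In conventional CD4 T cells it stood at 1138, 543, 224 and 637 CPM, above the Treg value in every library but combo. The log2 ratio of combo to control was 2.15 in Treg cells and -1.50 in conventional cells. Tiparp was lower in the 3 treated libraries, at 70.0 CPM in anti-PD-1, 105 CPM in anti-LIF and 50.7 CPM in combo, against 215 CPM in control.

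Combo was also set against each single antibody. Against anti-PD-1, 207 of 3267 genes (6.34%) were past 2-fold, with 2.36% higher and 3.98% lower, and against anti-LIF 200 of 3272 (6.11%), with 2.9% higher and 3.21% lower. The TNF receptor family had medians of 0.22 over anti-PD-1 and -0.38 over anti-LIF, and the activated and tissue list 0.45 and 0.09. As means over cells these medians were -0.21 and -0.30 for the TNF receptor family and -0.01 and -0.06 for the activated and tissue list. The higher medians over anti-PD-1 were thus not seen with equal weight per cell. Resting genes had medians of 0.60 and 0.26, and 0.48 and 0.07 as means over cells. Over anti-PD-1, 3 of 8 were past 2-fold, all higher. Over anti-LIF, 2 of 9 were past 2-fold upwards and 1 downwards. The log2 ratio of combo to anti-LIF was -1.52 [-1.93, -1.11] for Dgat1 and -0.91 [-1.50, -0.30] for Lrrc32. Identity genes had medians of 0.05 and -0.17, beside 0.05 and -0.03 for all genes measured. As means over cells the identity medians were -0.34 and -0.11.

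**Figure D4:**
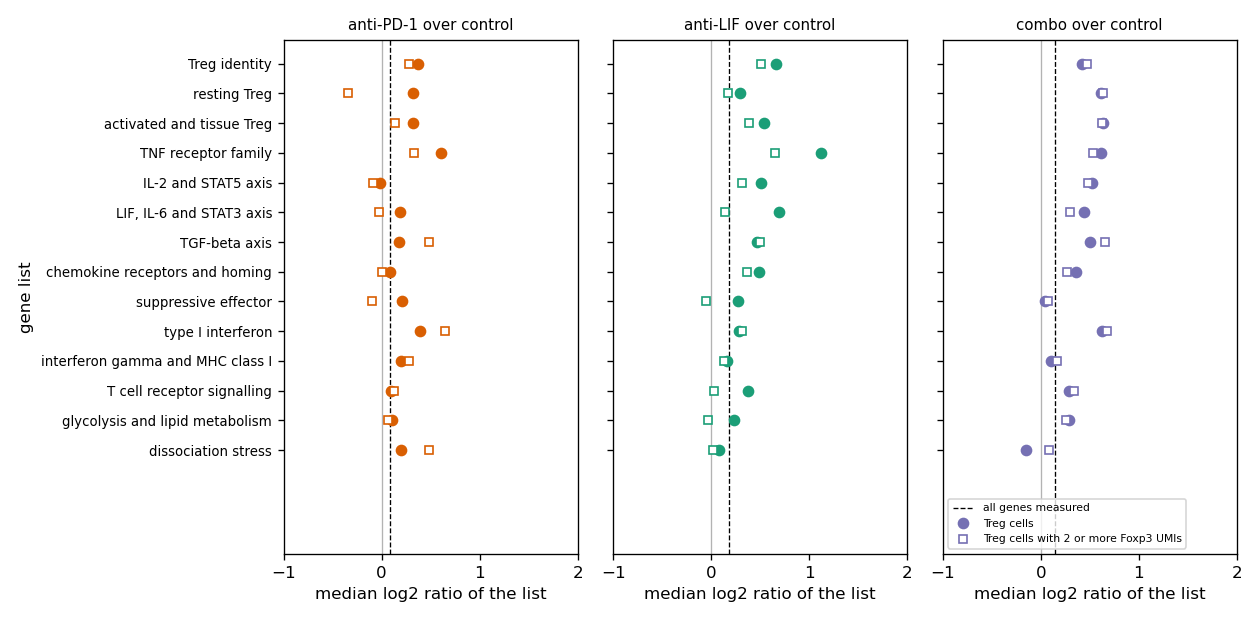
Median log2 ratio to control of 14 gene lists in Treg cells of the 3 treated libraries (circles) and in Treg cells with at least 2 Foxp3 UMIs (squares), with the median of all measured genes as a dashed line. The TNF receptor family lies to the right of that line in each panel, at 0.61, 1.12 and 0.62, and its squares lie nearer to it.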

How the data were processed

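Per the file headers, the authors deposited matrices of whole UMI counts for genes by cell barcodes, not normalized. Barcodes and gene identifiers make up the other deposited content. The submitters' processing notes name mm10 and Seurat 4.0.3. For the aligner and the way cells were called, the sources used here give nothing. Of 32285 identifiers, 32235 matched GENCODE M21.

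Cells were gated on counts, without clustering or a doublet caller, and the share of doublets was not measured. The members and gene lists were chosen with earlier results of these data known. Shares carry exact Clopper-Pearson intervals, CPM exact Poisson intervals, and ratios exact conditional intervals with 0.5 UMIs added to each sum (scipy 1.17.1), for counting error only. Treg and conventional CD4 sums were tested with edgeR 4.0.16 (TMM, filterByExpr, library as block, Benjamini-Hochberg adjustment). Groups are 1 library each, so these p-values measure how the cell type difference varied over 4 libraries. The fit was tested on simulated data. DESeq2 1.42.0 was an alternative. Thinned cells were drawn to 1000 UMIs. Library medians of all kept cells were 1674.5 to 2288 UMIs. Genes named outside the lists were the 6 highest and 6 lowest per treatment comparison and the 10 highest and 10 lowest against conventional cells, without gate, ribosomal, mitochondrial, antigen receptor segment and predicted genes. Some of them are named without a value. Some list genes are counted but not reported here.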

Additional observations from a re-analysis of the deposited data

Results flagged for a closer look

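For 9 genes of the lists, the log2 ratio to control in Treg cells and that in conventional CD4 T cells of the same libraries had opposite signs, each with a counting interval that left out 0 and with a gap of at least 1 between them. The number of list genes screened and the share over all genes were not computed, so this count has no background beside it. There is 1 library per group, so the difference between the cell types was not tested.

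In combo over control, Treg cells were higher and conventional CD4 T cells lower for 5 genes. Tox, a factor of chronically stimulated T cells, had a log2 ratio of 1.31 [0.58, 2.12] in Treg cells and -1.57 [-2.34, -0.92] in conventional cells. Ikzf2 had 0.58 [0.28, 0.88] and -0.95 [-1.50, -0.45], and Ccr7 had 1.05 [0.74, 1.37] and -0.43 [-0.80, -0.08]. Tnfrsf9 had 0.33 [0.18, 0.48] and -0.82 [-1.10, -0.56], but its Treg value was -0.12 as a mean over cells. Fabp5 had 1.45 [0.76, 2.24] and -1.19 [-2.08, -0.44]. The glycolytic gene Hk2 went the other way, at -1.51 [-2.38, -0.75] in Treg cells and 0.53 [0.05, 0.99] in conventional cells.

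In anti-PD-1 over control, Fabp5 had a log2 ratio of 1.43 [0.63, 2.28] in Treg cells, from 9 anti-PD-1 cells and 17 control cells, and -1.11 [-2.36, -0.17] in conventional cells. The Treg value was -0.081 as a mean over cells. Gzmb had -0.41 [-0.70, -0.14] in Treg cells and 0.78 [0.45, 1.09] in conventional cells. In anti-LIF over control, the early response gene Jun had -0.66 [-1.12, -0.23] in Treg cells and 0.42 [0.16, 0.67] in conventional cells, but its Treg value was 0.44 as a mean over cells, on the same side as the conventional cells. Igfbp4 had -2.38 [-3.82, -1.37] in Treg cells, from 7 anti-LIF cells and 19 control cells, and 1.31 [1.00, 1.63] in conventional cells. The Treg value was -0.47 with at least 2 Foxp3 UMIs and -0.61 without cells of over 1% other RNA.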

How the results depend on the processing

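Of 55 alternative values of the shares, 42 moved by less than their counting interval. With at least 2 Foxp3 UMIs, the log2 ratio of the share of kept cells turned to 0.15 for anti-LIF over control and was 0.70 for combo over control, and that of the share of T cells without CD8 RNA was 1.32 and 1.80. In thinned cells the ratios over T cells without CD8 RNA were 1.33 for anti-LIF and 1.91 for combo, and over kept cells 0.74 for combo over control and 1.11 for combo over anti-PD-1. At most 10% mitochondrial UMIs gave -0.79 for anti-LIF over control, and no C1q UMI gave 0.10 for combo over control. With cells of CD8 RNA kept, chosen after seeing the data, anti-PD-1 stood at -0.80, anti-LIF at -0.95 and combo at -0.050 to control, over kept cells. The counts past 2-fold for anti-PD-1, anti-LIF and combo over control and combo over anti-PD-1 and anti-LIF were 723, 1189, 810, 682 and 729 at 20 CPM and 86, 199, 119, 84 and 67 at 100 CPM. With at least 2 Foxp3 UMIs they were 359 for anti-PD-1 over control and 357 for combo over anti-PD-1. Against conventional CD4 T cells, 285 genes were higher and 352 lower with no filter on low counts, and 240 and 183 without cells of over 1% other RNA, an alternative chosen after seeing the data. DESeq2 called 90 higher and 58 lower, and thinned cells gave 186 and 168. Leaving out 1 library at a time gave 35 to 93 higher and 23 to 71 lower, from 3 sums against 3. Without the replicate block for library there were 96 higher and 53 lower. The median of the fibroblast markers changed sign, for anti-LIF over control to 0.50 with means over cells and 0.23 without cells of over 1% other RNA, and for combo over control to 0.094, 1.27 with at least 2 Foxp3 UMIs, and 0.22. Areg turned to -0.38 with at least 2 Foxp3 UMIs and Fabp5 to -0.081 with means over cells, both for anti-PD-1 over control. The causes were not tested. A gate with no UMI of macrophage, cancer cell or fibroblast markers left too few cells and was not run. No paired analysis was possible because each treatment is 1 library, for the treatment comparisons. The comparison with conventional CD4 T cells was paired by library.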
